A study of Saccharomyces cerevisiae with 7 samples.

Results

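The transcripts of the cytosolic translation factors of budding yeast were examined in cells lacking ARP6 or SWR1. The genes were taken by symbol from a fixed list of 39 factors of initiation, elongation and termination. Of these, 38 were found among the 5371 named genes with values on the arrays, each through 1 probe, and EFT1, which encodes the same eEF2 protein as EFT2, was listed for no probe. All 38 were measured on all 7 arrays and all were tested, among 5344 named genes and 5879 features in all (genes and unnamed probes). The 38 comprise 27 initiation factors, 9 elongation factors and both termination factors.

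Arp6 is an actin-related protein and Swr1 the catalytic ATPase of SWR-C, the chromatin remodeler that exchanges histone H2A for the variant Htz1. Each array held a deletion strain, in Cy5, beside a wild-type control strain, in Cy3, both in the W303 background, with 4 arrays for arp6Δ and 3 for swr1Δ. According to the labels, cells were grown untreated in YPD at 25 °C to an optical density of 1, while the methods of the study give another temperature. The values are log2 ratios of mutant over wild type, so that 1 is a doubling, and the question was how far loss of each subunit altered these transcripts and whether the mutants differed. No array had the dyes exchanged, so an effect of the dye cannot be told apart from an effect of a deletion when a mutant is set against wild type, whereas a fixed dye effect cancels when the mutants are set against each other. The wild type was present only as the second channel, and its own spread is not part of the tests.

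Translation initiation begins when the cap-binding complex eIF4F, with its helicase eIF4A, engages an mRNA, and a 43S complex of the small ribosomal subunit, eIF1, eIF1A, eIF3, eIF5 and the eIF2-bound initiator tRNA scans to the start codon. eIF2 must then be recharged with GTP by eIF2B, the exchange factor that is held back when eIF2 is phosphorylated during amino acid starvation. eEF1A delivers aminoacyl-tRNA to the elongating ribosome, eEF2 drives translocation, eEF3 is an ATPase that fungi require, and the release factors eRF1 and eRF3 end the chain at a stop codon. In growing yeast the genes of these factors are known to be expressed together with those of the ribosome.

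Each array was centred, with medians within 0.01 of 0, so the ratios are relative to the typical transcript, and in bulk cultures fewer cells of one kind and less RNA per cell cannot be told apart. ARP6 (YLR085C) read -1.28, -1.26, -1.19 and -0.63 on the arp6Δ arrays 1 to 4, and SWR1 (YDR334W) read -0.42, -1.02 and -1.01 on the swr1Δ arrays 1 to 3. The direction of the ratios was itself taken from the sign of these genes. The arp6Δ arrays were wider than the others, with an SD over all values of 0.78 to 1.43 against 0.37 to 0.54 in swr1Δ. They also fell into pairs: over all features r was 0.67 between replicates 1 and 2, 0.84 between 3 and 4, and 0.26 to 0.37 across these pairs. The labels do not say what sets the pairs apart. For some genes of the deposited table the arp6Δ values appear to stand 1 row away from their gene, and how far this extends was not determined. The row order could be checked for 13 of the 38 genes, by a match to the study's mean ratios within 0.25. By this check the arp6Δ values stood on their own row for 12 and not for GCD11, and the swr1Δ values for all 13. Neighbouring rows were not compared where the own row matched, so a match of means near 0 may arise by chance. For the other 25, TIF1, TIF2 and TIF5 among them, the row order was not checked. The study's list of its highest arp6Δ ratios names none of TIF1, TIF2 and YEF3, though their means here exceed its lowest entry. The reason was not tested.

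In arp6Δ, the translation factor genes as a group lay above wild type. The mean ratio was above 0 for 35 of the 38 (92.1%, against 48.6% of all features), and the median of the genes was 0.62. On replicates 1 to 4 the median was 1.08, 0.29, 0.57 and 0.72 (mean 0.67 ± 0.33, SD, n = 4), while the median of all features stayed within 0.01 of 0. All 4 arrays read above wild type for 23 of the 38 (60.5%, against 20.7% of the features measured on all arrays), and all 4 read below for 1, CAM1 (2.63% against 19.9%). In the test of single genes, which called 5.36% of all features in either direction, 3 of the 38 passed, TIF1, TIF2 and TIF5, all higher (7.89%, against 2.09% of all features). TIF1 and TIF2 are near-identical, so their calls may share a single signal. None was lower (against 3.27% of all features), and CAM1 alone was lower at an unadjusted p under 0.05. At an unadjusted p under 0.05 there were 20 of 38 (52.6%, against 29.4% of all features). The tests were limma fits with Benjamini-Hochberg adjustment over all features. None of the 3 calls was kept when any 1 of the 4 arp6Δ arrays was left out, with 13 to 19 of the 38 at an unadjusted p under 0.05 and 0% to 1.19% of all features called, or when the array pair was added as a random block, with 17 and 0.357%. The arp6Δ count was larger where the spread was estimated from all 7 arrays in one fit, with 19 higher (against 13.2% of all features) and none lower (against 13.6%), and by the methods' t-test at its unadjusted limits, with 12 higher (against 10.7%) and none lower (against 10.5%).

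In swr1Δ, the same genes as a group were centred near wild type, as all features were. The median of the 38 was 0.02 (against 0.002 for all features), and on replicates 1 to 3 it was 0.11, -0.02 and -0.04. All 3 arrays read above wild type for 13 of the 38 (34.2%, against 30.6% of the features measured on all arrays) and below for 8 (21.1%, against 31.5%). Still, 12 genes passed the test, which called 22.2% of all features in either direction. Higher than wild type were HYP2, ANB1, TIF1, TIF2, TEF2, TEF4 and SUI1, 7 of 38 (18.4%, against 11.2% of all features), and lower were TIF35, TIF3, GCD6, TIF5 and SUI3, 5 of 38 (13.2%, against 10.9%). The elongation factors made up 4 of the 7 higher genes and no lower one, while the initiation factors gave 3 higher and 5 lower. Among the 7, HYP2 with ANB1 and TIF1 with TIF2 are near-identical pairs, each of which may count a single signal more than once. At an unadjusted p under 0.05 there were 15 (39.5%, against 41.6% of all features). The methods' t-test at its unadjusted limits gave 6 higher (against 8.27%) and 4 lower (against 6.28%), while one fit over all 7 arrays, called none of the 38 and none of all features (0%), with 6 of the 38 at an unadjusted p under 0.05. Without replicate 1, 20 of the 38 passed (against 53.7% of all features), without replicate 2 only HYP2 (against 5.03%), and without replicate 3 HYP2, TIF3 and TIF35 (against 7.08%).

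**Figure D1:**
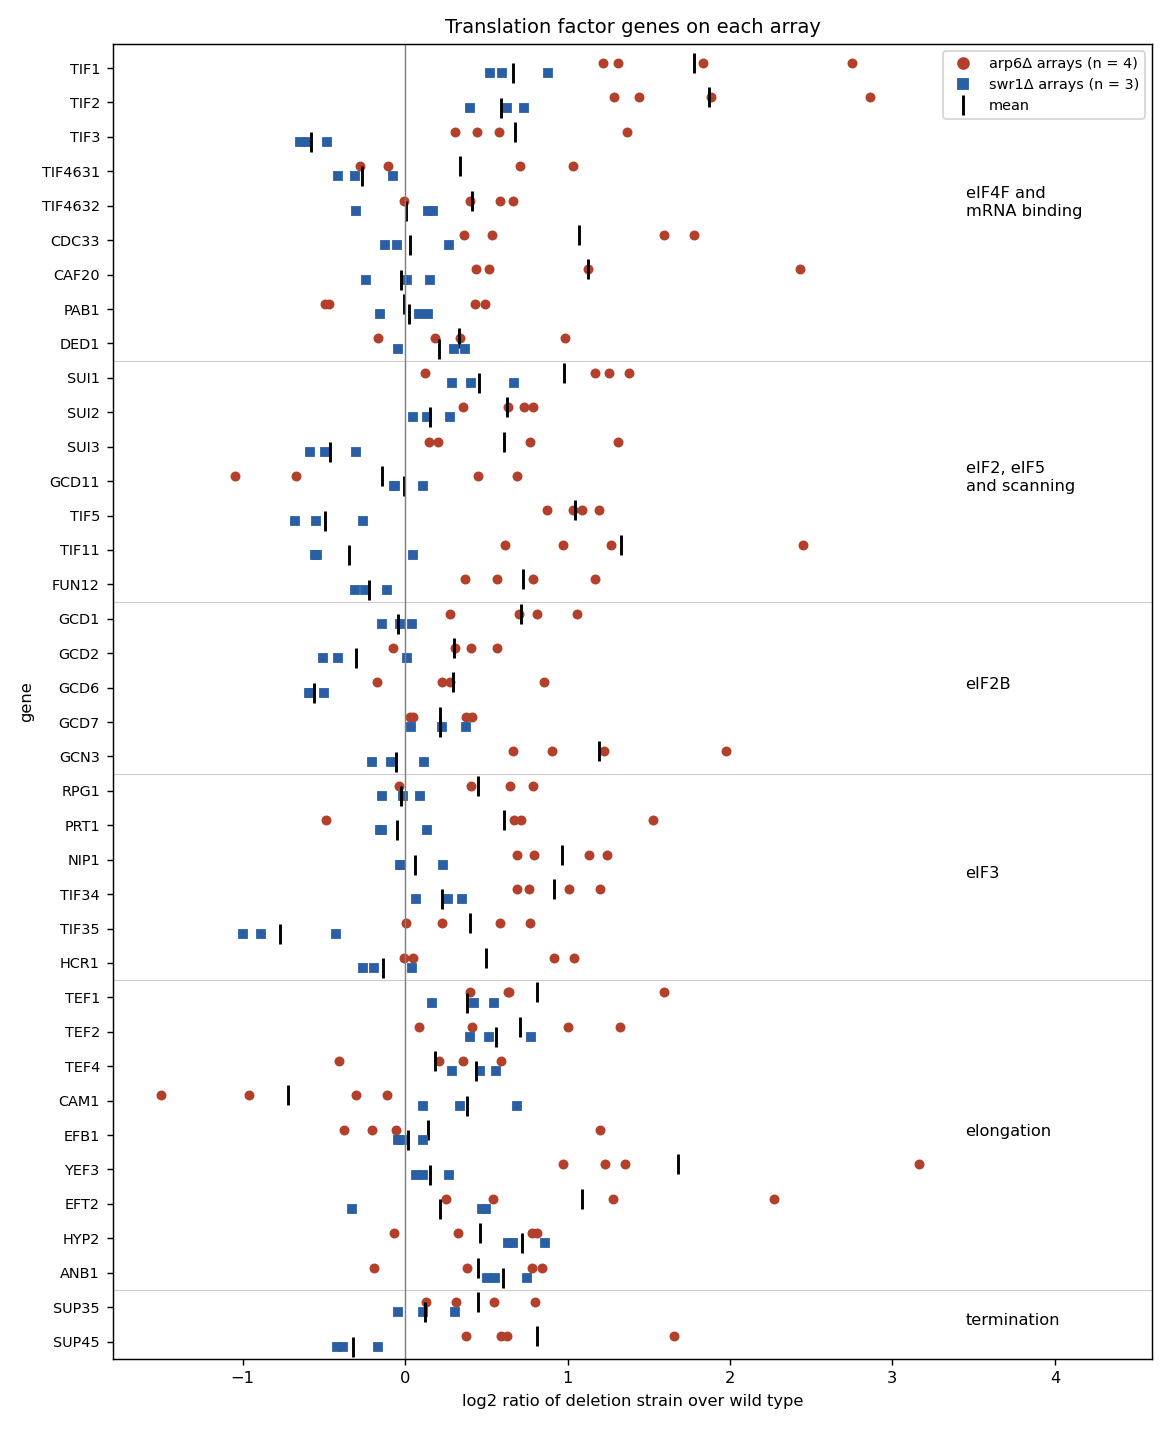
Log2 ratio of deletion strain over wild type (x axis) for each of the 38 translation factor genes (y axis, grouped by role); circles are the 4 arp6Δ arrays, squares the 3 swr1Δ arrays and vertical ticks the means. The arp6Δ points lie right of 0 on all 4 arrays for 23 genes, and for CAM1 they all lie left of it.

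The largest mean ratios of the set belonged to TIF1 (YKR059W) and TIF2 (YJL138C), duplicate genes for the RNA helicase eIF4A. TIF1 read 2.75, 1.84, 1.22 and 1.31 on the arp6Δ arrays 1 to 4 and 0.52, 0.59 and 0.88 on the swr1Δ arrays 1 to 3. For TIF2 the values were 2.86, 1.88, 1.29 and 1.44 in arp6Δ and 0.40, 0.73 and 0.63 in swr1Δ. Both genes were above wild type on every array, highest in arp6Δ replicate 1, and no arp6Δ array overlapped a swr1Δ array. TIF1 rose by 1.78 ± 0.70 (SD, n = 4) in arp6Δ, a 3.43-fold increase (limma, adjusted p = 0.0371), and by 0.67 ± 0.19 (n = 3) in swr1Δ (adjusted p = 0.0227). TIF2 rose by 1.87 ± 0.71, or 3.65-fold (adjusted p = 0.0355), and by 0.59 ± 0.17 (adjusted p = 0.0238). The 2 genes never lay more than 0.26 apart on an array; their sequences are nearly the same, so each probe may read both transcripts.

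The helper of eIF4A behaved differently in the mutants. TIF3 (YPR163C), which encodes eIF4B, read 1.36, 0.58, 0.31 and 0.44 in arp6Δ and -0.65, -0.60 and -0.48 in swr1Δ. Every arp6Δ array was above wild type and every swr1Δ array below it. TIF3 fell by 0.58 ± 0.09 in swr1Δ (limma, adjusted p = 0.0227), its mean of 0.67 ± 0.47 in arp6Δ did not pass (adjusted p = 0.136), and the difference between the mutants did (1.251 ± 0.30, SE; adjusted p = 0.0448).

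CDC33 (YOL139C), the cap-binding eIF4E, read 1.78, 0.54, 0.36 and 1.59 in arp6Δ and 0.27, -0.12 and -0.05 in swr1Δ. The lowest arp6Δ array stood just above the highest swr1Δ array, and neither mean passed (1.07 ± 0.72, adjusted p = 0.0861, and 0.03 ± 0.21, adjusted p = 0.862). CAF20, whose product competes for eIF4E and represses translation, had a like mean of 1.13 ± 0.92 in arp6Δ, carried most by replicate 1 at 2.43, and -0.02 ± 0.20 in swr1Δ. The eIF4G scaffolds were less uniform. TIF4631 (YGR162W) read -0.28, -0.11, 1.03 and 0.71 in arp6Δ and -0.08, -0.31 and -0.41 in swr1Δ. TIF4632 (YGL049C) read -0.00, 0.40, 0.59 and 0.66 in arp6Δ and 0.17, 0.14 and -0.30 in swr1Δ. In both genes the higher arp6Δ values came from replicates 3 and 4, the mutants overlapped, and the means (0.34 ± 0.63 and 0.41 ± 0.30 in arp6Δ) did not pass. PAB1, the poly(A)-binding protein, was below wild type on arp6Δ replicates 1 and 2 and above it on 3 and 4, with a mean of -0.01 ± 0.55. DED1, a scanning helicase, had 0.33 ± 0.48 in arp6Δ and 0.21 ± 0.22 in swr1Δ.

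Among the factors that carry the initiator tRNA and find the start codon, TIF5 (YPR041W) gave the most reproducible value of the set in arp6Δ. It encodes eIF5, the protein that makes eIF2 hydrolyse GTP. TIF5 read 1.19, 1.03, 1.09 and 0.88 in arp6Δ and -0.26, -0.55 and -0.68 in swr1Δ. The arp6Δ arrays spanned a narrow range, all above wild type, and every swr1Δ array was below it. TIF5 rose by 1.05 ± 0.13 in arp6Δ (2.07-fold; limma, adjusted p = 0.0389) and fell by 0.50 ± 0.21 in swr1Δ (adjusted p = 0.038), and the difference of 1.54 ± 0.22 (SE) was the one with the smallest p of the 38 (adjusted p = 0.0205).

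TIF11 (YMR260C), encoding eIF1A, read 2.45, 0.61, 0.97 and 1.27 in arp6Δ and 0.05, -0.54 and -0.56 in swr1Δ. SUI1 (YNL244C), encoding eIF1, which guards the choice of start codon, read 1.255, 0.12, 1.17 and 1.38 in arp6Δ and 0.67, 0.41 and 0.29 in swr1Δ. FUN12 (YAL035W), encoding the subunit-joining GTPase eIF5B, read 1.17, 0.56, 0.37 and 0.79 in arp6Δ and -0.25, -0.11 and -0.31 in swr1Δ. The mutants did not overlap for TIF11 and FUN12, and for SUI1 replicate 2 of arp6Δ lay below all swr1Δ arrays. In arp6Δ none of these passed (TIF11 1.33 ± 0.80, adjusted p = 0.0648; SUI1 0.98 ± 0.58, adjusted p = 0.0799; FUN12 0.72 ± 0.35, adjusted p = 0.0958). In swr1Δ only SUI1 passed and rose by 0.46 ± 0.20 (adjusted p = 0.0427).

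The eIF2 subunits bind the initiator tRNA. SUI3 (YPL237W), the beta subunit, read 1.31, 0.20, 0.15 and 0.77 in arp6Δ and -0.30, -0.59 and -0.49 in swr1Δ. It fell by 0.46 ± 0.14 in swr1Δ (limma, adjusted p = 0.0374), with 0.61 ± 0.55 in arp6Δ (adjusted p = 0.185). SUI2, the alpha subunit that the kinase Gcn2 phosphorylates, had 0.63 ± 0.19 in arp6Δ (adjusted p = 0.103) and 0.15 ± 0.11 in swr1Δ. GCD11 (YER025W), the gamma subunit, was listed at -1.05, -0.67, 0.45 and 0.69 in arp6Δ and at 0.11, -0.06 and -0.07 in swr1Δ, but its arp6Δ values belong by the row check to another gene. The row before it, named YAT2, held 1.04, 0.89, 0.46 and 0.44, so that GCD11 had a mean of 0.71 with those values (adjusted p = 0.0944) in place of -0.14 (adjusted p = 0.801).

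All 5 eIF2B genes had means above 0 in arp6Δ (against 48.6% of all features). In swr1Δ 1 of the 5 had a mean above 0 (against 50.2% of all features) and 4 had means below 0. GCN3 (YKR026C), the regulatory alpha subunit, which senses phosphorylated eIF2, read 1.98, 0.66, 0.91 and 1.22 in arp6Δ and 0.12, -0.20 and -0.09 in swr1Δ. GCD1 (YOR260W), the gamma subunit, read 0.70, 0.28, 0.81 and 1.06 in arp6Δ and 0.04, -0.03 and -0.14 in swr1Δ. GCD6 (YDR211W), the catalytic epsilon subunit, read 0.85, -0.17, 0.23 and 0.27 in arp6Δ and -0.59, -0.59 and -0.50 in swr1Δ. In each of the 3 the mutants did not overlap, with the swr1Δ arrays of GCD6 all well below wild type. GCD6 fell by 0.56 ± 0.05 in swr1Δ (limma, adjusted p = 0.0227). GCN3 (1.19 ± 0.57, adjusted p = 0.0563) and GCD1 (0.71 ± 0.33, adjusted p = 0.096) did not pass in arp6Δ. GCD2 had 0.30 ± 0.27 in arp6Δ and -0.30 ± 0.28 in swr1Δ, and GCD7, the beta subunit, had 0.22 ± 0.21 and 0.21 ± 0.17.

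The subunits of eIF3, the scaffold on the small ribosomal subunit, were all above 0 on average in arp6Δ, from 0.40 to 0.96. Of all features 48.6% had a mean above 0. None passed there, and 2 of 6 had an unadjusted p under 0.05 (33.3%, near the 29.4% of all features). NIP1 (YMR309C), or eIF3c, read 0.79, 1.24, 0.69 and 1.13 in arp6Δ and 0.24, -0.03 and -0.03 in swr1Δ. TIF34 (YMR146C), or eIF3i, read 1.20, 1.01, 0.69 and 0.76 in arp6Δ and 0.27, 0.07 and 0.35 in swr1Δ. These 2 genes were evenly above wild type in arp6Δ, clear of the swr1Δ arrays, and missed the threshold closely (NIP1 0.96 ± 0.26, adjusted p = 0.0521; TIF34 0.91 ± 0.24, adjusted p = 0.0559). TIF35 (YDR429C), eIF3g, which forms a module with eIF3i, read 0.58, 0.01, 0.23 and 0.77 in arp6Δ and -0.43, -0.89 and -1.0 in swr1Δ. It had the lowest mean of the 38 in swr1Δ, where it fell by 0.77 ± 0.30 (limma, adjusted p = 0.0227), and its difference between the mutants passed (1.17 ± 0.28, SE; adjusted p = 0.0448). RPG1, PRT1 and HCR1 had means of 0.45, 0.61 and 0.50 in arp6Δ and between -0.14 and -0.02 in swr1Δ.

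The elongation factors showed another pattern. In swr1Δ all 9 had means above 0 (median 0.38), against 50.2% of all features. Of the 9, 4 rose (44.4%, against 11.2% of all features), whereas of the 27 initiation factors 11.1% rose and 18.5% fell (against 10.9%). HYP2 with ANB1 among the former, and TIF1 with TIF2 among the latter, are near-identical pairs that may each count a single signal more than once. In arp6Δ the means of the elongation factors ran from -0.72 to 1.68, and none of the 9 passed. An unadjusted p under 0.05 was found for 5 (55.6%, against 29.4% of all features). HYP2 (YEL034W), the main gene for eIF5A, a factor that helps stalled ribosomes form peptide bonds, read 0.32, -0.07, 0.81 and 0.78 in arp6Δ and 0.67, 0.63 and 0.86 in swr1Δ. Its near-identical partner ANB1 (YJR047C), normally expressed when oxygen is scarce, read 0.38, -0.19, 0.78 and 0.84 in arp6Δ and 0.56, 0.50 and 0.75 in swr1Δ. The swr1Δ arrays were all above wild type, within the range of the arp6Δ arrays or at its upper edge. HYP2 rose by 0.72 ± 0.13 in swr1Δ, 1.65-fold (limma, adjusted p = 0.0225), and ANB1 by 0.60 ± 0.13 (adjusted p = 0.0227). The 2 genes lay at most 0.13 apart on any array, and their probes may read each other's transcript.

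TEF1 (YPR080W) and TEF2 (YBR118W) encode the same eEF1A protein. TEF1 read 1.59, 0.63, 0.40 and 0.64 in arp6Δ and 0.17, 0.43 and 0.55 in swr1Δ. TEF2 read 1.32, 1.00, 0.41 and 0.08 in arp6Δ and 0.40, 0.52 and 0.77 in swr1Δ. Both were above wild type on all 7 arrays, and the mutants overlapped. TEF2 rose by 0.56 ± 0.19 in swr1Δ (limma, adjusted p = 0.0276), and TEF1 at 0.38 ± 0.20 did not pass (adjusted p = 0.0636). Neither passed in arp6Δ (0.81 ± 0.53, adjusted p = 0.104, for TEF1 and 0.70 ± 0.56, adjusted p = 0.144, for TEF2).

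The eEF1B gamma genes TEF4 (YKL081W) and CAM1 (YPL048W), whose products belong to the exchange factor of eEF1A, were unlike each other in arp6Δ. TEF4 read 0.35, -0.41, 0.59 and 0.21 in arp6Δ and 0.29, 0.46 and 0.56 in swr1Δ. CAM1 read -1.50, -0.96, -0.30 and -0.11 in arp6Δ and 0.11, 0.34 and 0.69 in swr1Δ. CAM1 was the 1 gene of the set below wild type on all 4 arp6Δ arrays and above it on all 3 swr1Δ arrays, and the arp6Δ arrays of TEF4 lay on both sides of 0. TEF4 rose by 0.44 ± 0.14 in swr1Δ (limma, adjusted p = 0.0407). CAM1 at -0.72 ± 0.64 in arp6Δ (adjusted p = 0.159) and 0.38 ± 0.29 in swr1Δ (adjusted p = 0.089) passed in neither. EFB1, the catalytic subunit of the exchange factor, had 0.14 ± 0.72 and 0.02 ± 0.08.

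YEF3 (YLR249W), encoding eEF3, read 3.17, 0.97, 1.23 and 1.35 in arp6Δ and 0.07, 0.27 and 0.11 in swr1Δ. Replicate 1 was far above the rest, yet each of the other arp6Δ arrays also exceeded every swr1Δ array. Its mean of 1.68 ± 1.00 in arp6Δ, 3.21-fold, missed the threshold (limma, adjusted p = 0.0575). EFT2 (YDR385W), encoding eEF2, read 2.27, 1.28, 0.54 and 0.25 in arp6Δ and -0.33, 0.50 and 0.47 in swr1Δ. It was above wild type on all 4 arp6Δ arrays and overlapped the swr1Δ arrays, and neither mean passed (1.09 ± 0.90, adjusted p = 0.111, and 0.22 ± 0.47, adjusted p = 0.398).

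Both release factor genes were above wild type on all 4 arp6Δ arrays, and neither passed (1 of 2 at an unadjusted p under 0.05, against 29.4% of all features). SUP45, encoding eRF1, which reads the stop codon, had 0.81 ± 0.57 in arp6Δ and -0.32 ± 0.14 in swr1Δ, and SUP35, encoding the GTPase eRF3, had 0.45 ± 0.29 and 0.12 ± 0.18. For SUP45 all 3 swr1Δ arrays were below wild type and the mutants did not overlap.

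**Figure D2:**
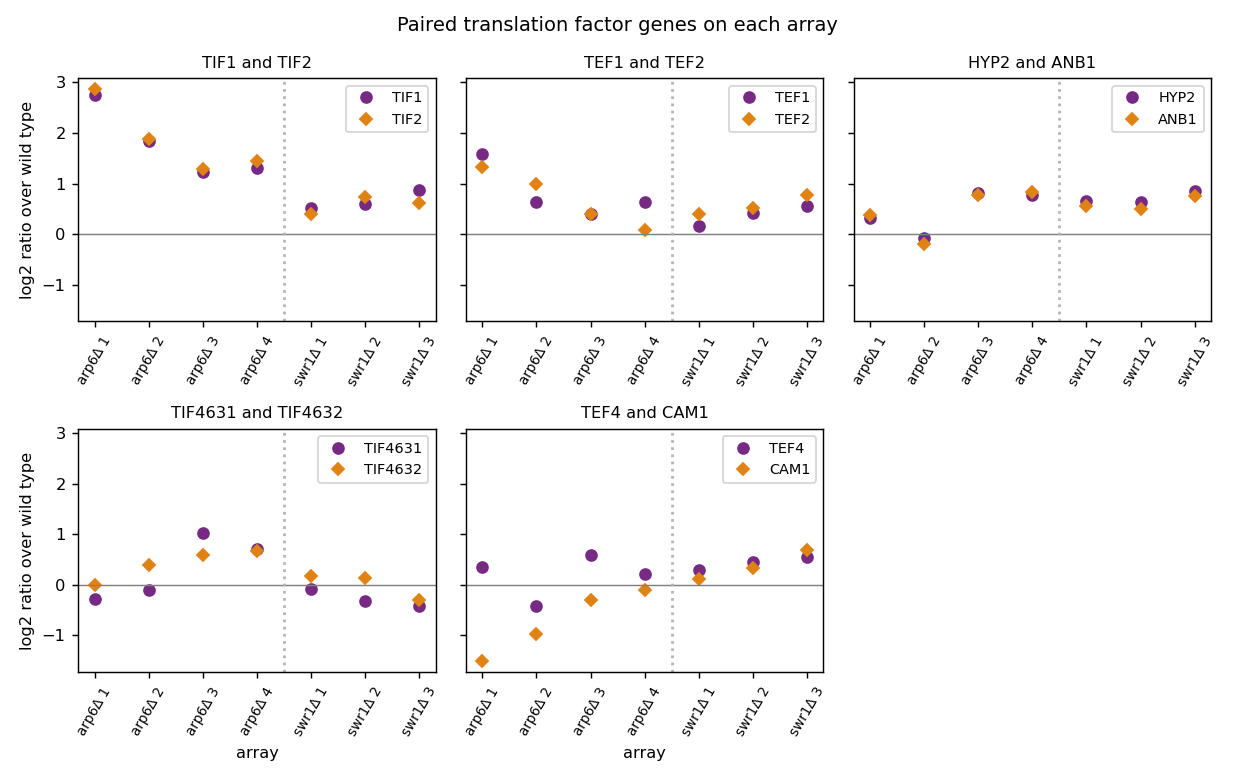
Log2 ratio over wild type (y axis) on each of the 7 arrays (x axis, 4 arp6Δ left and 3 swr1Δ right of the dotted line) for 5 pairs of genes that encode the same factor or subunit. TIF1 and TIF2 stay within 0.26 of each other and HYP2 and ANB1 within 0.13, while TEF4 and CAM1 are 1.86 apart on arp6Δ replicate 1.

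When the mutants were compared with each other, the translation factor genes were higher in arp6Δ. The median difference of arp6Δ minus swr1Δ was 0.65, against -0.01 for all features. Of the 38 differences, 32 were above 0 (84.2%, against 49.7% of all features). For 18 of 38 genes every arp6Δ array lay above every swr1Δ array (47.4%, against 16.8% of the features measured on all arrays), and for CAM1 every arp6Δ array lay below (2.63%, against 15.3%). Of the 18, 16 were initiation factors, 1 was the elongation factor YEF3 and 1 the release factor SUP45. In the fit across all features, which called 7.03% of them in either direction, TIF5, TIF3 and TIF35 passed (7.89%, against 3.13% of all features higher in arp6Δ), and none was lower (against 3.9%, with CAM1 alone at an unadjusted p under 0.05). At that unadjusted limit there were 19 of 38 in either direction (50.0%, against 28.9% of all features).

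For these 3 genes and for TIF11, NIP1, GCN3, FUN12, SUP45 and TIF34, the observed split was the most extreme of all 35 ways to divide 7 arrays into 4 and 3 (exact permutation test, two-sided, unadjusted p = 0.0286, the smallest p that the design allows). That p was reached by 14.9% of the features measured on all arrays. The differences of TIF11 (1.67 ± 0.44, SE), NIP1 (0.90 ± 0.24) and GCN3 (1.251 ± 0.33) had the next smallest p in the fit and did not pass (limma, adjusted p = 0.0565, 0.0574 and 0.0589). Differences near 0 were found for GCD7 (0.00 ± 0.23), PAB1 (-0.03 ± 0.32) and, among the elongation factors, for TEF2 (0.14 ± 0.33), EFB1 (0.12 ± 0.39) and ANB1 (-0.15 ± 0.30). With standard errors of this size a difference of moderate extent would not be seen. The calls depended on single arrays: without arp6Δ replicate 1 there were 10 (against 13.2% of all features), without replicate 2 there were 6 (against 11%), and without replicate 3 there was 1, TIF5 (against 2.08%). Without arp6Δ replicate 4 or any 1 of the swr1Δ arrays limma called none of the 38 (against 0.051% to 0.085%), with 12 to 18 of the 38 at an unadjusted p under 0.05.

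**Figure D3:**
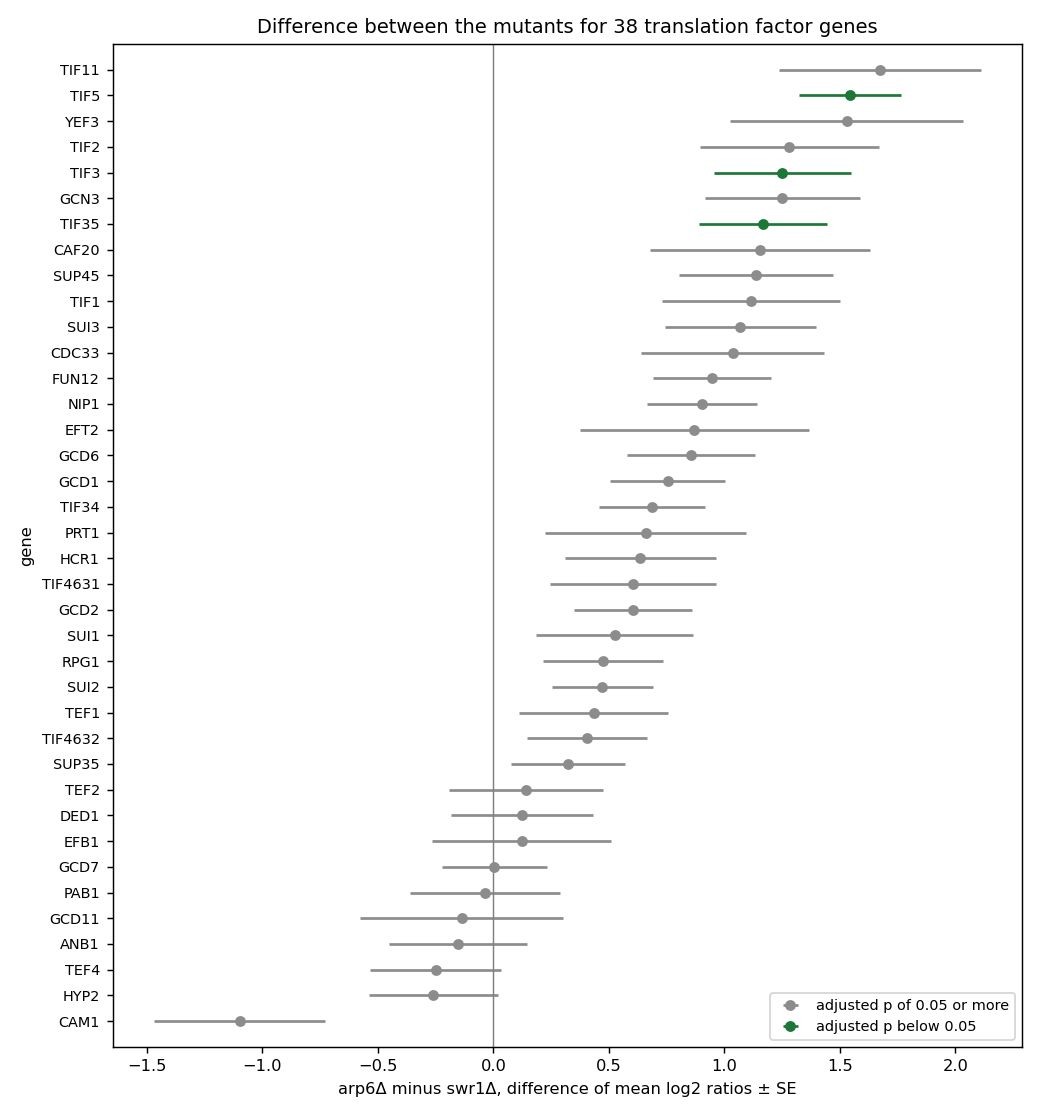
Difference of the mean log2 ratios, arp6Δ minus swr1Δ (x axis, points with SE bars from limma), for the 38 genes (y axis, in order of the difference). TIF5, TIF3 and TIF35 (green) passed the test, 32 of 38 points lie right of 0, and CAM1 is the lowest at -1.10.

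**Figure D4:**
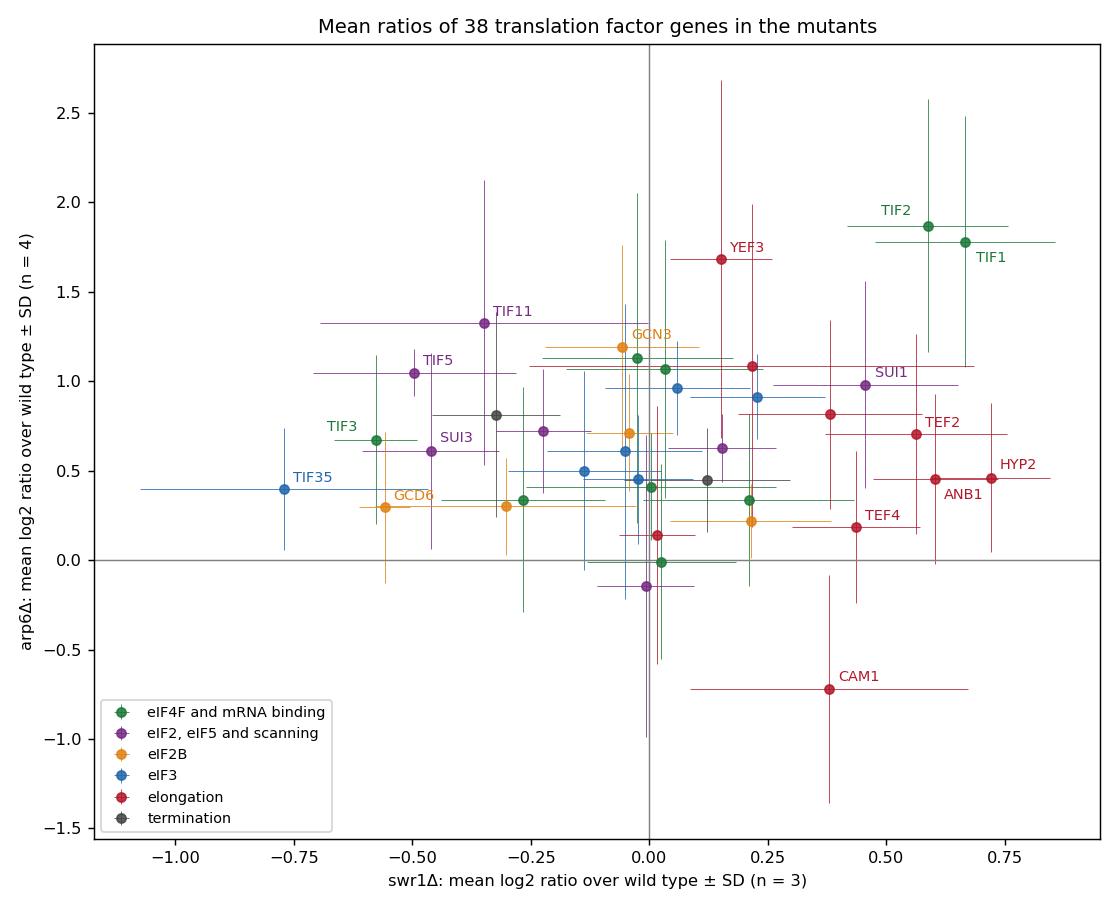
Mean log2 ratio over wild type ± SD in arp6Δ (y axis, n = 4) and in swr1Δ (x axis, n = 3) for the 38 genes, coloured by role. TIF1 and TIF2 are high in both mutants, the red elongation factors all lie right of 0, and TIF5, TIF3, TIF35, SUI3 and GCD6 lie above 0 in arp6Δ and left of 0 in swr1Δ.

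Other genes of the translation system were described beside the factors. In arp6Δ the median of the 124 cytosolic ribosomal protein genes was 1.09 ± 0.40 (mean of the 4 array medians, SD) and that of 19 cytosolic aminoacyl-tRNA synthetases 0.80 ± 0.54, on the side of the translation factors at 0.67 ± 0.33. All 4 arp6Δ arrays read above wild type for 74.6% of the ribosomal protein genes and 73.7% of the synthetases measured on all arrays, against 60.5% of the factors. Every arp6Δ array lay above every swr1Δ array for 62.3% and 68.4% of them, against 47.4% of the factors. The factors of mitochondrial translation stood at 0.08 ± 0.35 in arp6Δ and -0.35 ± 0.19 (n = 3) in swr1Δ. The enzymes that modify elongation factors stood at 0.47 ± 0.09 in arp6Δ. A list of other initiation-related or ribosome-bound proteins stood there at 0.29 ± 0.18 and the Gcn2 pathway at 0.20 ± 0.31. The relatives of eEF3 with the rescue and recycling factors had 0.15 ± 0.22 and the partners of Pab1 -0.01 ± 0.19. In swr1Δ the ribosomal protein genes stood at 0.18 ± 0.11 and the synthetases at -0.01 ± 0.03.

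Of the 65 genes of these lists other than the ribosomal protein genes, 2 passed in arp6Δ (3.08%, against 5.36% of all features) and 7 in swr1Δ (10.8%, against 22.2%). The arp6Δ count includes a row whose values are in doubt. In arp6Δ, STM1, a ribosome-bound protein, rose by 1.18 ± 0.39 (limma, adjusted p = 0.0423), 1 of 10 in the list of other initiation-related or ribosome-bound proteins. The other call in arp6Δ fell on the row of GLN4, a glutaminyl-tRNA synthetase. By the study's list of its highest ratios the arp6Δ values of that row belong to a neighbouring gene, so no change is given for GLN4. The row was still part of the synthetase medians and shares. In swr1Δ, TIF6, the anti-association factor eIF6, rose by 0.62 ± 0.25 (adjusted p = 0.0267), and DOM34, which frees stalled ribosomes, fell by 0.88 ± 0.37 (adjusted p = 0.0225). The phenylalanyl-tRNA synthetase gene FRS2 rose by 0.44 ± 0.15 and the seryl-tRNA synthetase gene SES1 fell by 0.63 ± 0.21 (adjusted p = 0.0413 and 0.0232). RRT2, of diphthamide synthesis on eEF2, rose by 0.39 ± 0.07, EFM6, an eEF1A methyltransferase, fell by 0.38 ± 0.08, and the mitochondrial GTPase GUF1 fell by 0.43 ± 0.19 (adjusted p between 0.0466 and 0.0487).

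**Figure D5:**
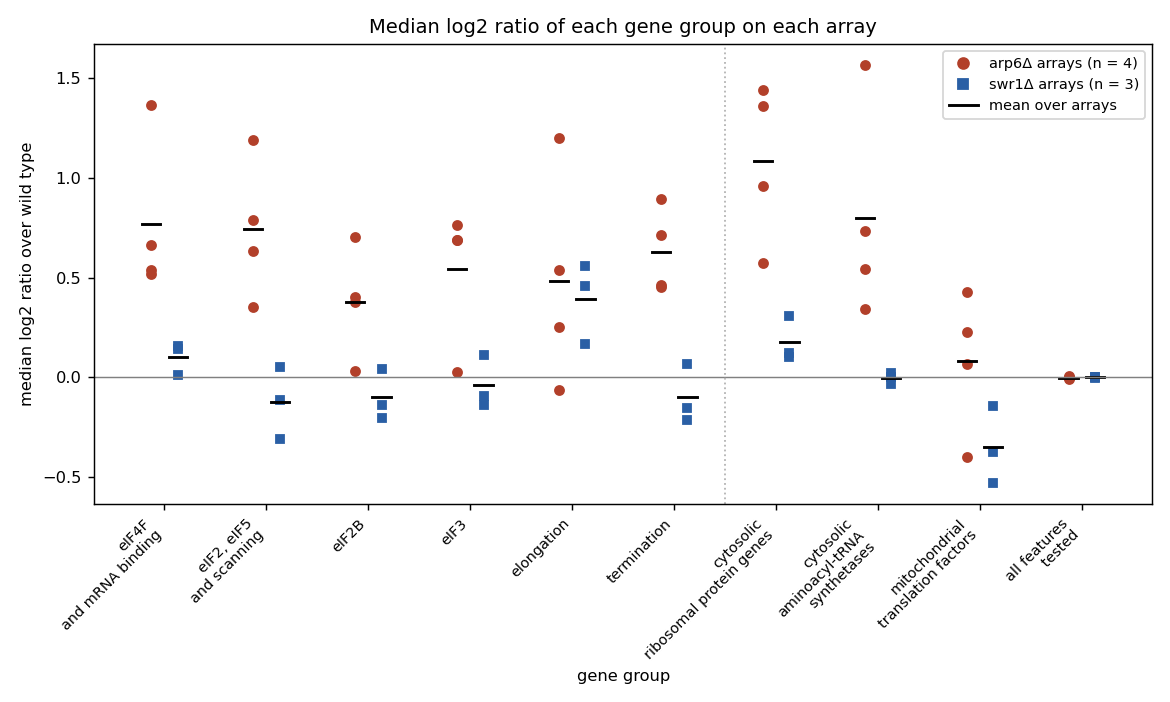
Median log2 ratio over wild type (y axis) of each gene group (x axis) on each array; circles are the 4 arp6Δ arrays, squares the 3 swr1Δ arrays and bars the mean over arrays. Left of the dotted line are the roles of the translation factors, where the elongation group has swr1Δ medians of 0.17 to 0.56; right of it are ribosomal protein genes, synthetases, mitochondrial factors and all features.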

How the data were processed

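The deposited values are log2 ratios that the authors had already normalised, 1 per probe and array, for 6912 probes, of which 967 had no value. No source used here gives the scanner, the normalisation method or the reason for empty cells. Signal over background is unknown, so noise of weak signals cannot be judged. Probes were named from the platform annotation, with symbols updated by systematic name through RefSeq's gene table (5446 probes with 1 symbol and 1466 with none listed), and probes of a gene were averaged. Features on at least 2 arrays of each mutant were tested.

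Each mutant was fitted on its own arrays as a ratio against 0, and the difference was fitted on all 7, with limma 3.58.1 in R 4.3.3, two-sided tests and Benjamini-Hochberg adjustment over 5879 features at 0.05. The fits were run on simulated data with independent arrays. That setting lacks the arp6Δ array pairs, so it cannot show how the pairs affect the tests. No limit on false calls was set there for the difference. Exact permutation tests over 35 splits were run per gene. The labels number the arrays and name no cultures, whereas the methods state independent cultures, so p-values measure the spread between these arrays. Tables were made with pandas 2.3.3 and numpy 2.4.6 under Python 3.11.15, and plots with matplotlib 3.10.9.

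The genes and lists were chosen with earlier results of these data known. Values on each array are given for the 12, 8 and 6 genes of smallest p in arp6Δ, in swr1Δ and in the difference and for genes that encode the same factor, with SUI3 added after its values were seen; of other genes, those of related lists past the threshold are named. The row order was compared, by systematic name and to within 0.25, with a part of the study's list of mean ratios. Alternatives were other scalings, filters and variance models, array weights, blocks, single arrays left out, one fit over all arrays, and the methods' t-test with its limits of 0.05 and 1.25-fold. Chromosomal positions and sequences were not used here.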

Additional observations from a re-analysis of the deposited data

Results flagged for a closer look

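On the arp6Δ arrays SUI1 was lowest on replicate 2, at 0.12, far from the other 3 arrays (1.17 to 1.38). Its gap to the nearest array took up 0.836 of the range, above the 95% limit of Dixon's test for 4 samples, which chance exceeds in about 1 of 20 groups. All 38 genes were screened in this way and SUI1 alone exceeded the limit, so its gap may have arisen by chance. The difference between arp6Δ and swr1Δ passed limma's test for TIF5 (1.54), TIF3 (1.251) and TIF35 (1.17). In 4 further genes every array of one mutant was on one side of wild type and every array of the other mutant on the opposite side. These were SUI3 (1.07, adjusted p = 0.0777), FUN12 (0.95, adjusted p = 0.06), SUP45 (1.14, adjusted p = 0.0726) and CAM1 (-1.10, adjusted p = 0.0996), and in limma's test of the difference none of the 4 passed. The share of all features with such opposite signs was not counted, so the 4 cannot be set against a background.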

How the results depend on the processing

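No called value changed direction under the alternatives run. The number of genes called in arp6Δ, 3 in the reported fit, was 19 in one fit over all 7 arrays (26.8% of all features called). It was 9 with quantile normalization (13.8%) and 9 with arrays scaled to a common spread (13.8%). On replicates 1 and 2 alone it was 4 (7.94%), and on replicates 3 and 4 alone 24 (43.4%). The methods' t-test gave 12 at its limits (21.1%) and 0 after Benjamini-Hochberg adjustment (0% of all features). With the array pair as a random block there were 0 (0.357%, with 17 of the 38 at an unadjusted p under 0.05). With any 1 array left out there were 0 (0% to 1.19%). In swr1Δ, 12 became 0 in one fit over all 7 arrays (0% of all features, with 6 of the 38 at an unadjusted p under 0.05). The adjusted t-test gave 0 (0%), and at its limits the t-test gave 10 (14.5%). With 1 array left out there were 1 to 20 (5.03% to 53.7%). For the difference, 3 became 11 with quantile normalization (20.6% of all features called), 11 with arrays scaled (12.9%), 11 with array weights (13.3%), 1 with the array pair as a block (2.52%), 9 by the unadjusted exact permutation test (14.9%) and 0 to 10 with 1 array left out. For this difference CAM1, lower in arp6Δ, passed limma under quantile normalization only. The causes of these changes were not tested. The labels do not say whether equal replicate numbers pair the samples. Deviations of arrays of the same number correlated at 0.02, 0.05 and -0.05, and those of unlike number at -0.18 to 0.18. With the replicate number as a block, 0 of 38 and 0.034% of all features passed limma for the difference (15 at an unadjusted p under 0.05). With so few arrays, and arp6Δ replicate 4 without a partner, neither result can decide whether the samples were paired. The medians over the 38 genes moved little with 1 array left out, to 0.55 to 0.71 in arp6Δ, -0.05 to 0.06 in swr1Δ and 0.57 to 0.80 for the difference. A planned search for displaced rows from the deposited values alone was not run. Giving GCD11 the values of the row before it, chosen after seeing the data, left 3 calls in arp6Δ and 3 in the difference.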
